A study of Mus musculus with 6 samples.

Results

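The 4770 sites described here are places between genes where FOXC2 binding was called both after podocyte injury by adriamycin (ADR) and in control mice that were given PBS. FOXC2 is a forkhead transcription factor (TF) required for podocyte differentiation, and the podocyte is the glomerular epithelial cell whose foot processes and slit diaphragm hold back plasma protein. Adult male mice with the mTmG reporter, in which a Cre transgene active in podocytes turns these cells from red to green membrane fluorescence, were injected with ADR at 18 mg/kg or with PBS on D0 and again on D7, and their podocytes were isolated by FACS on D9. All mice of both conditions carried the reporter and the Cre transgene, the background was mixed, and the number of mice behind each of the 3 samples per condition is not given in the sources used here. Chromatin was precipitated with an antibody labelled Abcam b5060, and the 3 samples of a condition were pooled by the authors into 1 peak list.

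The sites were chosen by the measured peak calls. An ADR peak was kept when it shared at least 1 bp with a PBS peak and when its summit lay outside every GENCODE M21 transcript and more than 1 kb from any transcript start or end. Each was paired with the overlapping PBS peak of nearest summit. Of 40067 ADR peaks, 27112 overlapped one of the 41075 PBS peaks and 8011 had an intergenic summit. The 4770 sites with both features were 59.5% of the intergenic ADR peaks (95% Wilson interval 58.5 to 60.6). Because the rule used both lists, the folds below describe the sites and were not tested. Each condition has 1 pooled list with no replicate error and an unknown read depth, so intervals on shares and medians cover counting error over sites only. Sites share animals and libraries and are not replicates of a condition.

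The rule has 2 edges. The smallest overlap inside it was 6 bp, at chr11:110379692-110379943, with a fold of 5.83 in the ADR list and 3.93 in the PBS list. The nearest miss was an ADR peak at chr1:86524801-86524990 with a fold of 3.94, lying 24 bp from a PBS peak with a fold of 4.58. At the other edge, the summit at chr15:89210256-89210740, with folds of 10.4 in ADR and 12.2 in PBS, lay 1001 bp from a transcript and was kept. The summit at chr4:114688323-114689146, with folds of 40.4 in ADR and 23.4 in PBS, lay 999 bp from one and was not. Only 38 of the 3241 intergenic ADR peaks without a PBS overlap had a PBS peak within 200 bp.

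Intergenic binding of a TF is usually read as binding at distal enhancers, stretches of DNA to which several TFs bind together and which can act on a gene far away. Podocyte enhancers are known to be bound by WT1, a zinc finger TF, by LMX1B, a LIM homeodomain TF, and by TCF21, and TEAD factors bind DNA for the Hippo pathway coactivators YAP and TAZ. AP-1, a dimer of FOS and JUN proteins, is induced by stress and growth signals in many cells. The sequence of a site was therefore searched for exact words of these factors on both strands. The forkhead words were ACAAACA or ACAAATA or ATAAACA or ATAAATA or GCAAACA or GCAAATA or GTAAACA or GTAAATA. The LMX1B word was TTAATTA, the AP-1 word TGACTCA, and the TEAD words ACATTCCA or ACATTCCT or GCATTCCA or GCATTCCT. The WT1 words were GNGGGGGAG or GNGGGGGCG or GNGTGGGAG or GNGTGGGCG, and the KLF words GGGCGGGG or GGGCGTGG or GGGTGGGG or GGGTGTGG. WT1 and KLF words are both rich in G and can share bases. A match describes the sequence and does not show that the factor was bound.

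The plus-strand sequences of GRCm38, from the RefSeq assembly, of the ADR summit and 50 bases to each side are shown for the sites that the results turn on, with searched words in capitals. The first 3 are the sites with the highest ADR fold, named by the nearest protein-coding gene.
*Rps24* site, chr14:24823316-24823416: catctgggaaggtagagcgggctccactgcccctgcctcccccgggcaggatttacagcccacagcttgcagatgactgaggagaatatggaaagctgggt
*Ccdc54* site, chr16:50786310-50786410: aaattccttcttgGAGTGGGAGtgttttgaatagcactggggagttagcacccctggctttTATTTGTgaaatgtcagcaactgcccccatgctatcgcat
*Tcf21* site, chr10:22877972-22878072: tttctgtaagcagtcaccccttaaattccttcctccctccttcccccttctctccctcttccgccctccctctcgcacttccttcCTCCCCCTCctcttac
The next are the sites with the largest ratios of ADR fold to PBS fold.
*Tlr5* site, chr1:183077497-183077597: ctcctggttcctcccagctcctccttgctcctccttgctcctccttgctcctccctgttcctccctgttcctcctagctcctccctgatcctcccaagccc
*H2-Q6* site, chr17:35418488-35418588: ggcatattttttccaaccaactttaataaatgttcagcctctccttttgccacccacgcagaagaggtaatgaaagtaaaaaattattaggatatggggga
*Diaph3* site, chr14:86544400-86544500: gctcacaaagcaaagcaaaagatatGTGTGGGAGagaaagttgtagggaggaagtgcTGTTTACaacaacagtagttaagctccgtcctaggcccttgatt
Those with the smallest ratios follow, first the 3 lowest and then 3 that were chosen after their values were seen, because no other ADR peak lies nearer to the PBS summit.
*Irf2bp2* site, chr8:126737080-126737180: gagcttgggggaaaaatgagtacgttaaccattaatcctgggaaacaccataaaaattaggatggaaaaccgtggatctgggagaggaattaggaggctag
*Med13l* site, chr5:118425159-118425259: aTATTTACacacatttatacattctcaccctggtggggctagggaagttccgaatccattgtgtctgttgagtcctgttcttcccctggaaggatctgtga
*Epn2* site, chr11:61611283-61611383: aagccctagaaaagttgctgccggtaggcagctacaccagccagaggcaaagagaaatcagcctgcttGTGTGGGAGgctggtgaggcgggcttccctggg
*Acsl4* site, chrX:142490214-142490314: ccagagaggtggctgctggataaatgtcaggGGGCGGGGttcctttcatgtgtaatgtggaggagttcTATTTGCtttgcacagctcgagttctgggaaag
*Pim3* site, chr15:88843804-88843904: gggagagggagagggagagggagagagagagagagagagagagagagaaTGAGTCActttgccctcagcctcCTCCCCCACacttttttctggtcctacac
*Mtdh* site, chr15:33907260-33907360: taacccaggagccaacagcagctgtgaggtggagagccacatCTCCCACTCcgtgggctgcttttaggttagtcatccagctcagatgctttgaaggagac

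Sites with an ADR fold of at least 20 that lie farthest from any protein-coding TSS, the strongest sites near podocyte genes, and the strongest site in each of the 3 largest groups of sites complete the set. The groups are labelled by a gene that borders them. The nearest protein-coding TSS to the group sites shown is that of *Lrrc74a*, *Myh9* and *Gm9887*, in that order.
*Zeb2* site, chr2:46669525-46669625: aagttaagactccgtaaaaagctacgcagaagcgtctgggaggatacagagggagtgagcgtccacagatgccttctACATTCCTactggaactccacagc
*Flrt2* first site, chr12:94257763-94257863: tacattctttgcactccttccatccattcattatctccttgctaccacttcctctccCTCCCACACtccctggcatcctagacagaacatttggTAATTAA
*Flrt2* second site, chr12:94283077-94283177: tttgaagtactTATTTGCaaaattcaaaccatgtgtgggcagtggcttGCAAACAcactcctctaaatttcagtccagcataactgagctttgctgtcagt
*Vegfa* first site, chr17:46049726-46049826: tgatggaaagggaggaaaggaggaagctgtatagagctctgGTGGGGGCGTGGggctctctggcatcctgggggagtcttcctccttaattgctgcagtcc
*Tdrd5* site, chr1:156306652-156306752: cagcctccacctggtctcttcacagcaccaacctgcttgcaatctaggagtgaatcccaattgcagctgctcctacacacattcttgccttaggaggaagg
*Vegfa* second site, chr17:46063936-46064036: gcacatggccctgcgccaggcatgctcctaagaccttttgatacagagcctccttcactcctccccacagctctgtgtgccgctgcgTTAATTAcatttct
*Irf2bpl* group, chr12:86794068-86794168: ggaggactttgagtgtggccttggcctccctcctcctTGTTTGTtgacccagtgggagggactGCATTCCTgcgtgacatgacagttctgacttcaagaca
*Myh9* group, chr15:77882740-77882840: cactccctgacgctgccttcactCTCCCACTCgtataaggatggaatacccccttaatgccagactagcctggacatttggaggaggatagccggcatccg
*Arf6* group, chr12:69404218-69404318: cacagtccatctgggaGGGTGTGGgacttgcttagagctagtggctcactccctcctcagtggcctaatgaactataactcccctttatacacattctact
The *Vegfa* first site carries overlapping WT1 and KLF words near its summit, and the second an LMX1B word toward its right end. The *Tlr5* site is a run of short repeats, and the *Pim3* site ends a GA repeat with an AP-1 word followed by a WT1 word.

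FOXC2 enrichment at the intergenic sites was of similar size in ADR and PBS podocytes at the median site and differed widely around it. The fold, which is the enrichment of a peak over its background in the authors' list, had a median of 9.10 in the ADR list (quartiles 5.74 and 16.4) and 8.02 in the PBS list (5.63 and 13.2). The log2 ratio of ADR fold to PBS fold had a median of 0.09 (interval 0.06 to 0.13), with quartiles of −0.47 and 0.73. The ADR fold was higher at 54.0% of the sites and the folds were within 1.5 times of each other at 49.1%. When each fold was placed by its percentile within its own list, the ADR percentile was the higher at 45.8% of the sites, with a median difference of −2.16 percentile points, so the direction at the median site depends on the scale. The highest ADR fold was 49.1 and the highest PBS fold 80.6.

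The spread is where the sites stand apart from promoters. The ADR fold was at least 2 times the PBS fold at 838 sites, 17.6% (interval 16.5 to 18.7), against 12.8% of all ADR peaks that overlap a PBS peak. It was at most 0.5 times the PBS fold at 484 sites, 10.1% (9.32 to 11.04), against 7.44% of all such peaks. Among promoter peaks of both lists the shares were 4.33% and 5.84%, lower than at the intergenic sites by 13.2 points (12.1 to 14.4) and 4.30 points (3.34 to 5.27). Intronic peaks of both lists had 19.6% and 7.73%. The intergenic sites held 2.02 points fewer of the first kind (interval of the difference −3.36 to −0.67) and 2.41 points more of the second (1.40 to 3.43).

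**Figure D1:**
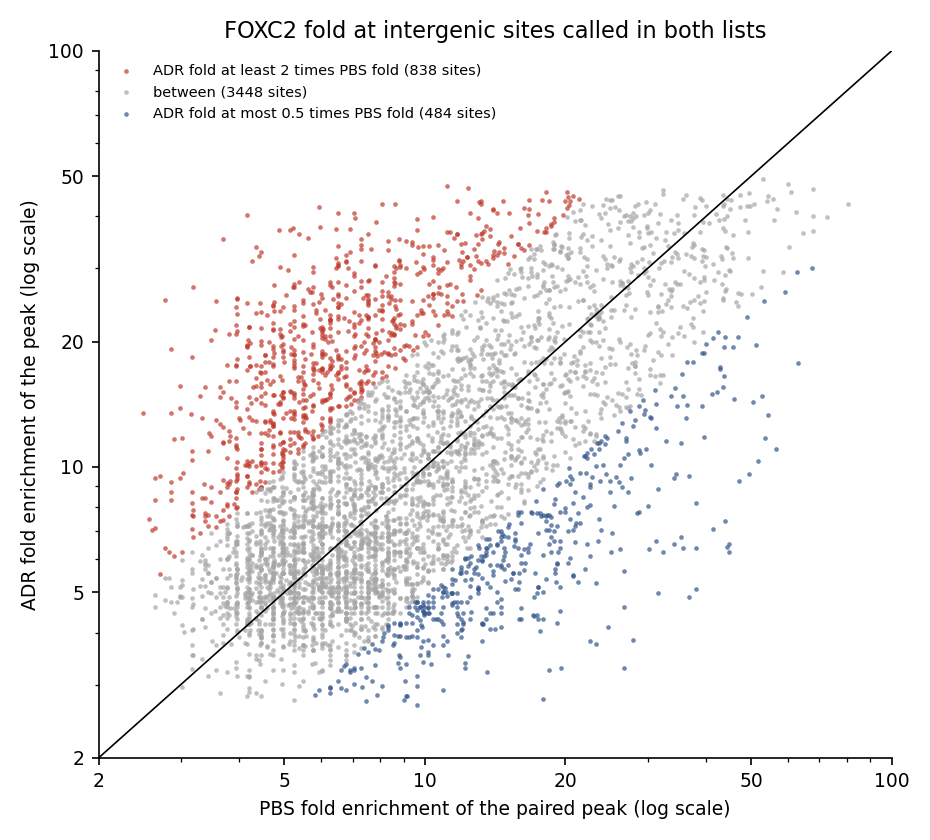
Fold enrichment of each of the 4770 intergenic sites in the ADR list (vertical axis, log scale) against that of the paired PBS peak (horizontal axis, log scale), with the line of equal folds. The 838 sites with an ADR fold at least 2 times the PBS fold lie above the line, and the 484 with at most 0.5 times lie below it.

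The rule keeps overlapping peaks and pairs those of nearest summit, so distances within pairs are given as a description. Summits of the paired peaks lay a median of 22 bp apart, and within 50 bp at 78.1% of the sites. Intronic peaks of both lists had similar values, 22 bp and 78.6%, and promoter peaks had 28 bp and 69.5%. The overlap had a median of 289 bp, and 85.1% of pairs shared at least 50% of both peaks. One ADR and 1 PBS peak overlapped each other and no other at 4627 sites. An ADR peak was the more likely to be called in PBS the stronger it was, since 83.5% of the strongest quintile of intergenic ADR peaks and 46.7% of the weakest quintile overlapped a PBS peak. Intergenic ADR peaks without a PBS overlap had a median fold of 6.13, and intergenic PBS peaks without an ADR overlap 5.18.

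The sites lay a median of 35.0 kb from the nearest protein-coding TSS (quartiles 11.9 and 92.9 kb), and 51.1% were over 10 kb from any transcript. They were nearest to 2669 different protein-coding genes. RefSeq places 852 of them, 17.9%, inside a gene record of its own, mostly of long noncoding RNA (692 sites), so the word intergenic holds for the GENCODE annotation. Sites far from coding genes had the higher ratios. Of the 108 sites over 500 kb from a coding TSS, 36.1% (27.7 to 45.5) had an ADR fold at least 2 times the PBS fold, with a median log2 ratio of 0.49 (0.23 to 0.87) and median folds of 12.7 in ADR and 7.56 in PBS. Of the 1033 sites under 10 kb, 15.6% (13.5 to 17.9) did, with a median of 0.02 (−0.05 to 0.09). The distant sites also had a lower GC content within 100 bp of the summit, 46.8% against 53.7%, and held a forkhead word more often, at 47.2% against 24.0%. The part of base composition in the difference was not tested.

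**Figure D2:**
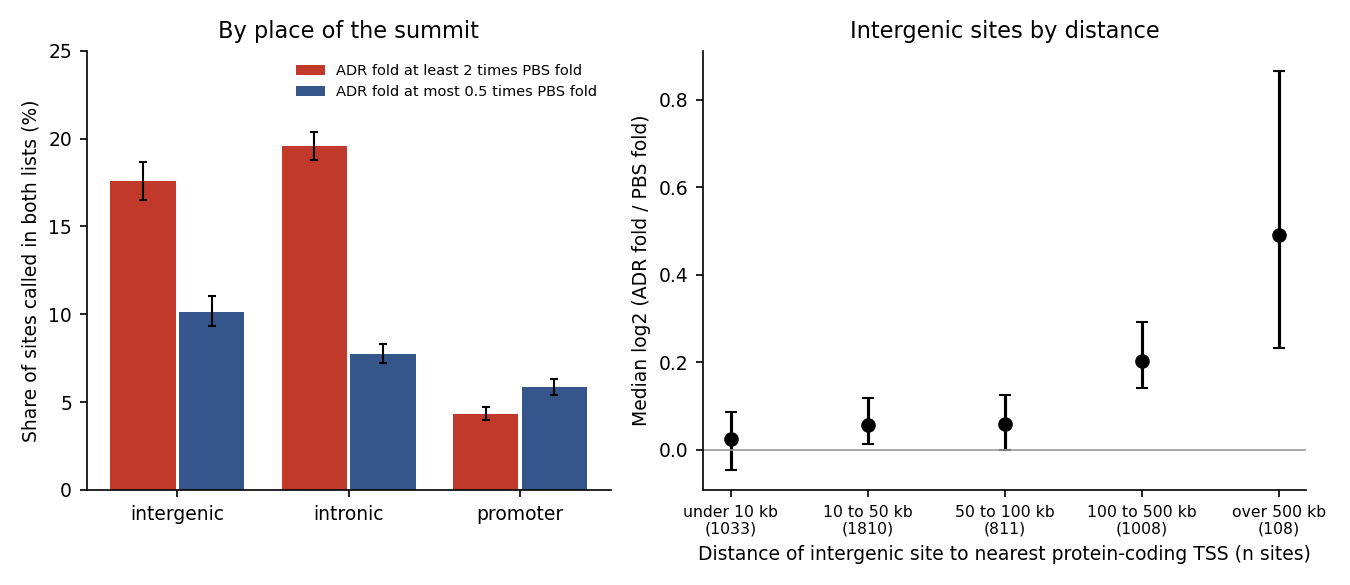
Left, share of peaks called in both lists with an ADR fold at least 2 times (red) or at most 0.5 times (blue) the PBS fold, by place of the summit, with 95% Wilson intervals. Right, median log2 ratio of ADR fold to PBS fold of the intergenic sites by distance to the nearest protein-coding TSS, with 95% intervals of the median, from 0.02 under 10 kb to 0.49 over 500 kb.

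Chromosome X, of which male mice have a single copy, held 102 sites, or 0.596 per Mb, where autosomes held 1.153 to 3.27 per Mb. The median log2 ratio on X was 0.45 (0.26 to 0.63), above the medians of the autosomes, which ranged between −0.09 and 0.19. Over all peaks of both lists on X, promoters included, it was −0.01. Chromosome Y had 3 sites.

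The sequence at the summits was marked by WT1 words more than by forkhead words. A WT1 word lay within 100 bp of the summit at 1576 sites, 33.0% (31.7 to 34.4), and in 4.94% of flanking windows of equal length, centered 1 kb away, a ratio of 6.69. Over all ADR peaks the share was 29.0%. TEAD words were at 13.0% of sites and 3.35% of flanks, and AP-1 words at 7.002% and 3.70%. Forkhead words, by contrast, were at 27.6% of sites (26.3 to 28.9) and 29.7% of flanks, and LMX1B words at 3.42% and 3.35%. GC content had a median of 52.2% at the summit and 46.0% in the flanks, and its part in these shares was not tested. Over all ADR peaks the shares were 25.1% for forkhead, 3.52% for LMX1B, 9.25% for TEAD and 4.02% for AP-1.

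By position within the sites, too, WT1 words were concentrated at the summit and forkhead words were not. Within 20 bp of the ADR summit there were 9.18 WT1 words per 100 sites in each bin of 20 bp, against 0.683 at 400 to 500 bp. TEAD words numbered 1.79 and 0.384, and KLF words 2.61 and 1.14. Forkhead words were sparser at the summit than away from it, with 3.14 and 4.33. The CTCF word, that of the insulator protein at chromatin loop anchors, was at 70 sites (1.47%). GATA words were at 2.35% of sites and 2.77% of flanks, and the TCF21 E-box AACAGCTG at 2.43% and 0.996%. The HNF4A word CAAAGTCCA was at 0.545% of sites, the ETS word ACCGGAAG at 0.503% and that of the glucocorticoid receptor at 0.419%, and the NFI word was at 2 sites and the HNF1 word at 1. The GATA word was AGATAAG.

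**Figure D3:**
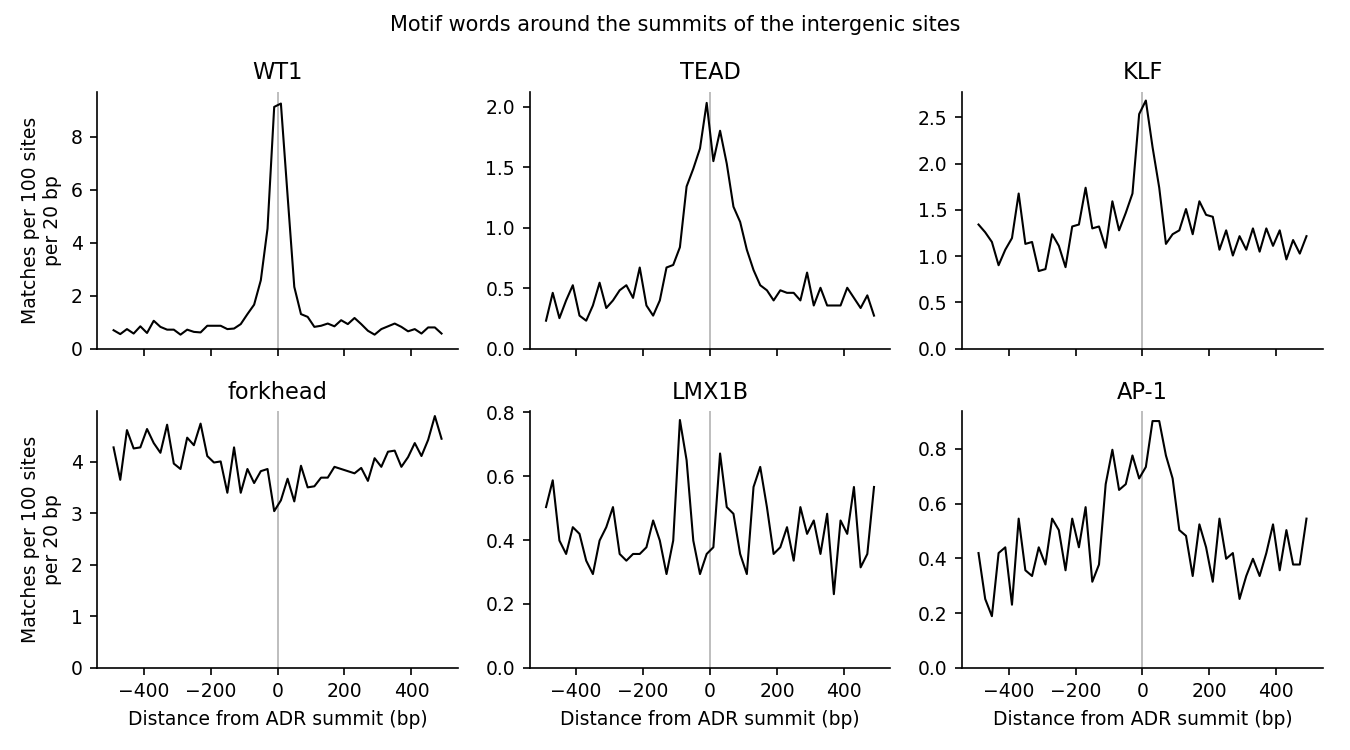
Matches of 6 motifs per 100 intergenic sites in bins of 20 bp (vertical axis, scaled for each motif from 0) against the distance from the ADR summit in bp. WT1 and TEAD words peak at the summit, with means of 9.18 and 1.79 next to it, and forkhead words do not.

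The words at the sites differed along the ratio of the folds. Sorted by the ratio into quintiles of 954 sites, the highest quintile had median folds of 18.7 in ADR and 6.12 in PBS, and the lowest 5.87 in ADR and 13.2 in PBS. Forkhead words were at 33.5% of the highest quintile and 23.2% of the lowest, a difference of 10.4 points (6.36 to 14.4). LMX1B words were at 7.86% and 1.47% (difference 6.39, 4.52 to 8.26), and TEAD words at 14.8% and 9.54% (difference 5.24, 2.32 to 8.16). AP-1 and WT1 ran the other way. AP-1 words were at 4.19% of the highest quintile and 13.4% of the lowest (difference −9.22, −11.7 to −6.72), and WT1 words at 29.4% and 39.2% (difference −9.85, −14.1 to −5.62). KLF words were at 12.7% and 13.3%, with an interval of the difference, −3.65 to 2.39, that includes 0.

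GC content moved with the ratio, with medians of 50.7% in the highest quintile and 53.2% in the lowest. With quintiles of the ratio formed within quintiles of GC content, the forkhead difference was 5.29 points (1.30 to 9.28), and those of LMX1B, TEAD, WT1 and AP-1 were 5.27, 4.05, −8.85 and −10.03. The forkhead words next to the summit numbered 4.14 per 100 sites and 20 bp in the highest quintile and 2.15 in the lowest, and 4.56 and 4.05 at 400 to 500 bp. In neither quintile were forkhead words denser at the summit than away from it. LMX1B words next to the summit numbered 1.21 in the highest quintile, against 0.514 farther out, and 0.262 and 0.273 in the lowest. AP-1 words were denser at the summit than farther out in both quintiles, and more so in the lowest. They numbered 1.52 against 0.430 in the lowest quintile, and 0.419 against 0.273 in the highest.

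**Figure D4:**
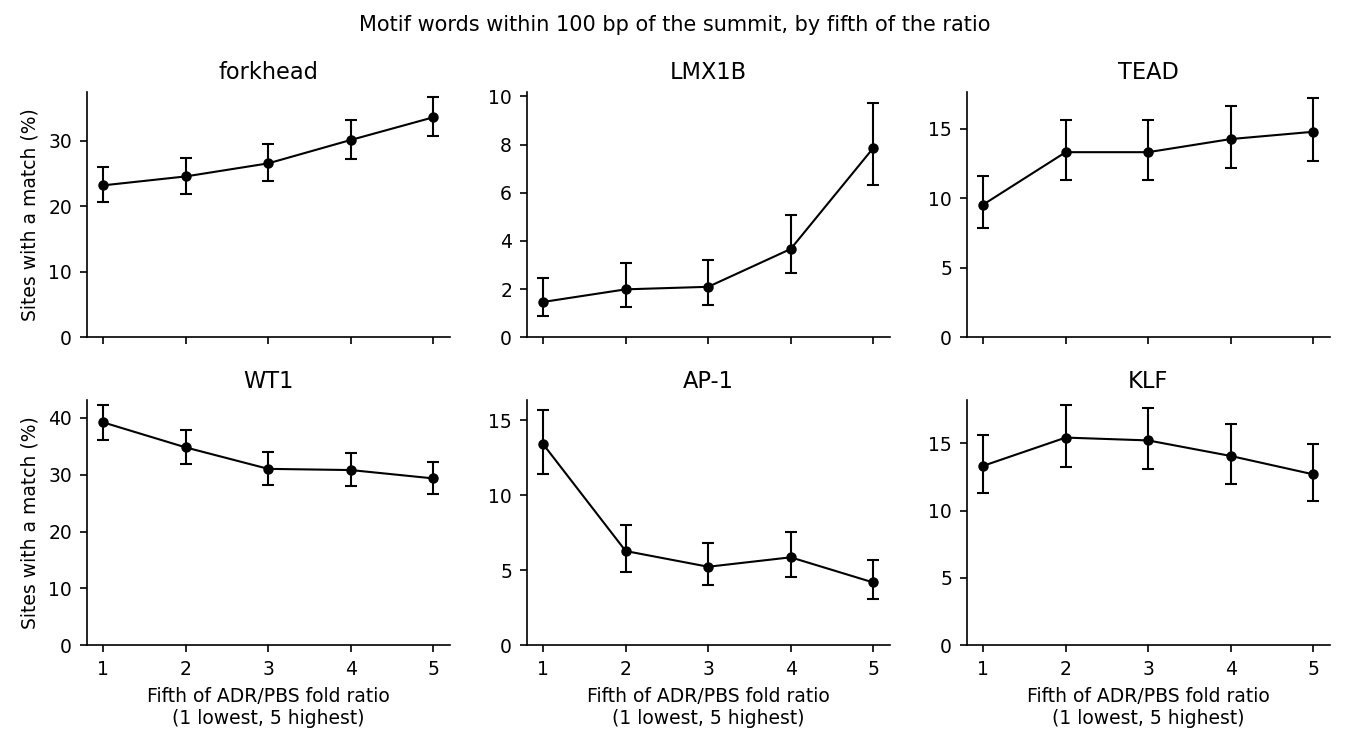
Share of intergenic sites with a motif word within 100 bp of the ADR summit (vertical axes, scaled for each motif from 0) by quintile of the ratio of ADR fold to PBS fold, 954 sites each, with 95% Wilson intervals. Forkhead, LMX1B and TEAD words are at more sites in the highest quintile (33.5%, 7.86% and 14.8%) than in the lowest (23.2%, 1.47% and 9.54%), and WT1 and AP-1 words at fewer.

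Seen from the motif, the 163 sites with an LMX1B word had the highest median log2 ratio of the 7 motifs described most closely, 0.81 (0.57 to 1.02), with median folds of 13.4 in ADR and 7.04 in PBS. Of them, 42.3% had an ADR fold at least 2 times the PBS fold and 3.07% at most 0.5 times. The 46 sites with both an LMX1B and a forkhead word had a median of 0.98 (0.48 to 1.19), and the 117 with an LMX1B word alone of these 0.76 (0.47 to 0.96), with overlapping intervals. The 334 sites with an AP-1 word had a median of −0.31 (−0.44 to −0.17), with median folds of 8.71 in ADR and 10.7 in PBS. Where no forkhead word accompanied the AP-1 word the median was −0.41 (−0.58 to −0.29), and where one did it was 0.08 (−0.30 to 0.33). On the percentile scale the medians were 13.6 points for LMX1B words and −9.22 for AP-1 words, the same directions as by fold.

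WT1 words went with folds that were high in both lists, and less with a fold high in ADR alone. They were at 53.3% of the 332 sites with folds of at least 20 in both lists and at 19.3% of the 602 sites with folds under 6 in both. Of the 261 sites with an ADR fold of at least 20 and a PBS fold under 10, 27.2% (22.2 to 32.9) held one. Of the 80 sites with a PBS fold of at least 20 and an ADR fold under 10, 47.5% (36.9 to 58.3) did, beside 33.0% of all sites. Sites with a WT1 word and no forkhead word had median folds of 10.6 in ADR and 10.002 in PBS and a median log2 ratio of −0.05 (−0.10 to 0.02). Sites with a forkhead word and no WT1 word had 9.10 in ADR and 7.04 in PBS and a median of 0.28 (0.21 to 0.35). The 1450 sites with a word of none of the 7 motifs had a median of 0.09, that of all sites. The 70 sites with the CTCF word were weaker in both lists, with median folds of 5.55 in ADR and 7.29 in PBS.

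Compared with intergenic peaks called in only 1 list, the sites lay between the ADR-only and PBS-only peaks in forkhead, LMX1B and AP-1 words, and above both in WT1 and KLF words. Forkhead words were at 27.6% of the sites, at 40.7% of intergenic peaks called only in ADR and at 23.5% of those called only in PBS, and AP-1 words at 7.002%, 2.34% and 20.4%. WT1 words were at 33.0% of the sites, against 20.2% of the ADR-only and 19.3% of the PBS-only ones, differences of 12.8 points (10.9 to 14.8) and 13.7 points (11.9 to 15.6). The ADR-only and PBS-only peaks were weaker, with median folds of 6.13 and 5.18. Among the sites with folds under 6 in both lists, 19.3% held a WT1 word. The part of fold in the WT1 differences was not tested. KLF words were at 14.1% of the sites, against 9.72% and 10.3%, differences of 4.41 points (2.99 to 5.83) and 3.87 points (2.48 to 5.26). The TEAD share differed from that of the ADR-only peaks by −0.54 points (−2.05 to 0.98). Against intronic peaks of both lists the WT1 share differed by −1.10 points (−2.74 to 0.54) and the forkhead share by 0.80 points (−0.75 to 2.35). Against promoter peaks of both lists the forkhead share was 17.6 points higher (16.2 to 19.0) and the KLF share 21.7 points lower, at 14.1% of the sites and 35.8% of the promoter peaks.

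The 10 sites with the highest ADR fold, 45.5 to 49.1, had PBS folds between 11.1 and 67.8. The ADR fold was the higher at 5 of them, and at least 2 times the PBS fold at 4. The highest, chr14:24822861-24823711 between *Rps24* and *Zmiz1*, had a fold of 49.1 in ADR and 52.99 in PBS, and chr16:50785911-50786787, 195 kb from *Ccdc54*, had 47.97 and 60.1. At chr1:43362911-43363699, 81.2 kb from *Nck2*, which encodes an adaptor that links nephrin to actin, the folds were 46.6 in ADR and 67.8 in PBS. At these 3 sites the PBS fold was the higher. The site chr10:22877613-22878376, 57.8 kb beyond *Tcf21*, a TF of podocyte differentiation, had 47.3 in ADR and 11.1 in PBS, a ratio of 4.24. The site chr3:123785959-123786613, 95.4 kb from *Ndst3*, had 46.9 and 12.4. Of the 10, 6 held a WT1 word and none an AP-1 word, beside 33.0% and 7.002% of all 4770 sites.

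The 10 largest ratios, between 7.22 and 9.69, joined ADR folds of 25.2 to 40.3 with PBS folds of 2.77 to 5.21. The largest was at chr1:183077274-183077811, between *Tlr5*, the flagellin receptor, and *Disp1*, which releases Hedgehog ligands, with 40.3 in ADR and 4.16 in PBS. It lies in sequence the reference marks as a repeat. At chr17:35417966-35419116, near the MHC class I gene *H2-Q6*, the folds were 35.4 and 3.69, with summits 501 bp apart, and *H2-Q* genes are near-identical copies among which short reads are uncertain. At chr9:110778783-110779605, between *Myl3* and *Prss42* and within 50 kb of the podocyte gene *Pth1r*, they were 37.0 in ADR and 4.86 in PBS. Of the 10, 4 held a forkhead word, 3 a TEAD word and 1 a WT1 word, beside 27.6%, 13.0% and 33.0% of all 4770 sites.

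The 10 smallest ratios joined ADR folds of 2.76 to 6.51 with PBS folds of 17.9 to 44.8. At 4 of them, near *Irf2bp2*, *Med13l*, *Epn2* and *Efna5*, the summit lay 270 to 1138 bp from that of a wider PBS peak, and another ADR peak had its summit within 45 bp of the PBS summit. That other ADR peak had a fold of 23.8 at the *Irf2bp2* site, where the PBS fold was 26.6, and 18.9 at the *Efna5* site, where it was 31.6. At the *Med13l* and *Epn2* sites it had 9.52 and 6.37, and the PBS folds were 36.8 and 37.998. The ratio at the PBS summit was thus close to 1 near *Irf2bp2* and stayed well below 1 near *Med13l* and *Epn2*. At the other 6 the paired summits lay within 49 bp. At chr15:88843772-88844003, 18.3 kb from *Pim3*, a serine/threonine kinase gene, the folds were 6.24 in ADR and 44.7 in PBS. At chr15:33907207-33907454, 175 kb from *Mtdh*, they were 6.43 and 44.5, and at chr4:8510356-8510598, 25.2 kb from *Rab2a*, a GTPase of vesicle transport, 6.51 and 44.8. Of the 10, 5 held a WT1 word, among them these 3 sites, 3 a forkhead word and 1 an AP-1 word. Over all 4770 sites the shares were 33.0%, 27.6% and 7.002%. Over the 4627 sites with 1 peak of each list, 457 had an ADR fold at most 0.5 times the PBS fold, 9.88%.

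The 10 sites farthest from a coding TSS were taken from the 870 with an ADR fold of at least 20, a choice that favors a higher fold in ADR. The ADR fold was the higher at 694 of the 870, 79.8%, and at 9 of the 10. The farthest, chr2:46669313-46669928, lay 1552 kb from *Zeb2*, a zinc finger repressor gene, with folds of 20.8 in ADR and 8.59 in PBS. A pair of sites 1434 and 1409 kb from *Flrt2* had 33.3 in ADR and 18.9 in PBS, and 27.8 and 18.8. The sites chr2:159575198-159575743 and chr2:159607020-159607779, between *Dhx35* and *Gm826*, had 24.7 in ADR and 6.61 in PBS, and 28.4 and 8.59. The exception, chr16:73647091-73647780 between *Robo1* and *Robo2*, which encode receptors for SLIT guidance proteins, had 24.0 in ADR and 28.2 in PBS.

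Near podocyte genes the sites stood higher in ADR than in PBS. The 48 genes are a set characteristic of podocytes that the authors also examined in these samples, so their sites are no independent evidence of direction. Of the 48, 26 had an intergenic site within 50 kb of the TSS (54.2%), against 17.1% of all protein-coding genes. The 53 sites there had a median log2 ratio of 0.60 (0.37 to 0.79), with 41 higher in ADR, 18 with an ADR fold at least 2 times the PBS fold and 2 with at most 0.5 times. All other sites had a median of 0.09 (0.05 to 0.12). An ADR fold at least 2 times the PBS fold was at 34.0% of the 53 (22.7 to 47.4) and at 17.4% of all other sites (16.3 to 18.5). Of the 53, 77.4% were higher in ADR and 3.77% at most 0.5 times, against 54.0% and 10.1% of all 4770 sites. By percentile within each list 39 of the 53 were higher in ADR.

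At *Vegfa*, the angiogenic factor that podocytes supply to the glomerular endothelium, 4 sites lay 8.40 to 31.6 kb from the TSS. Their folds were 32.4 in ADR and 6.78 in PBS at 8.40 kb, 43.8 and 17.8 at 17.4 kb, 4.88 and 4.41 at 27.2 kb, and 34.8 and 8.33 at 31.6 kb. Of these, 3 were at least 2 times higher in ADR and 1 was under 5 in both lists. At *Tcf21* the sites at 6.39, 24.0 and 48.4 kb had 13.5 in ADR and 9.88 in PBS, 17.6 and 4.36, and 33.9 and 9.88. The site chr1:156306267-156307011, 3.04 kb from *Tdrd5*, had 42.8 in ADR and 8.64 in PBS.

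*Npr3*, the natriuretic peptide clearance receptor gene, had a site with 22.1 in ADR and 5.14 in PBS. *Clic3*, a chloride intracellular channel gene, had one with 21.1 and 5.72, and *Sema3g*, a secreted semaphorin gene, a stronger one with 16.4 and 5.34. *Rhpn1* had 33.6 in ADR and 16.1 in PBS. The 3 sites of *Cdkn1c*, the p57 cell cycle inhibitor of mature podocytes, had ADR folds of 8.17 to 16.0 and PBS folds of 4.94 to 9.24. Of the 39 sites nearest to 1 of the 48 genes, 7 had the lower fold in ADR, among them 1 each at *Rasl11a*, *Ctsl*, *Nes*, *Eif3m*, *Synpo* and *Gas1*, each by less than 2 times, such as 19.99 in ADR and 26.1 in PBS at *Rasl11a*.

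**Figure D5:**
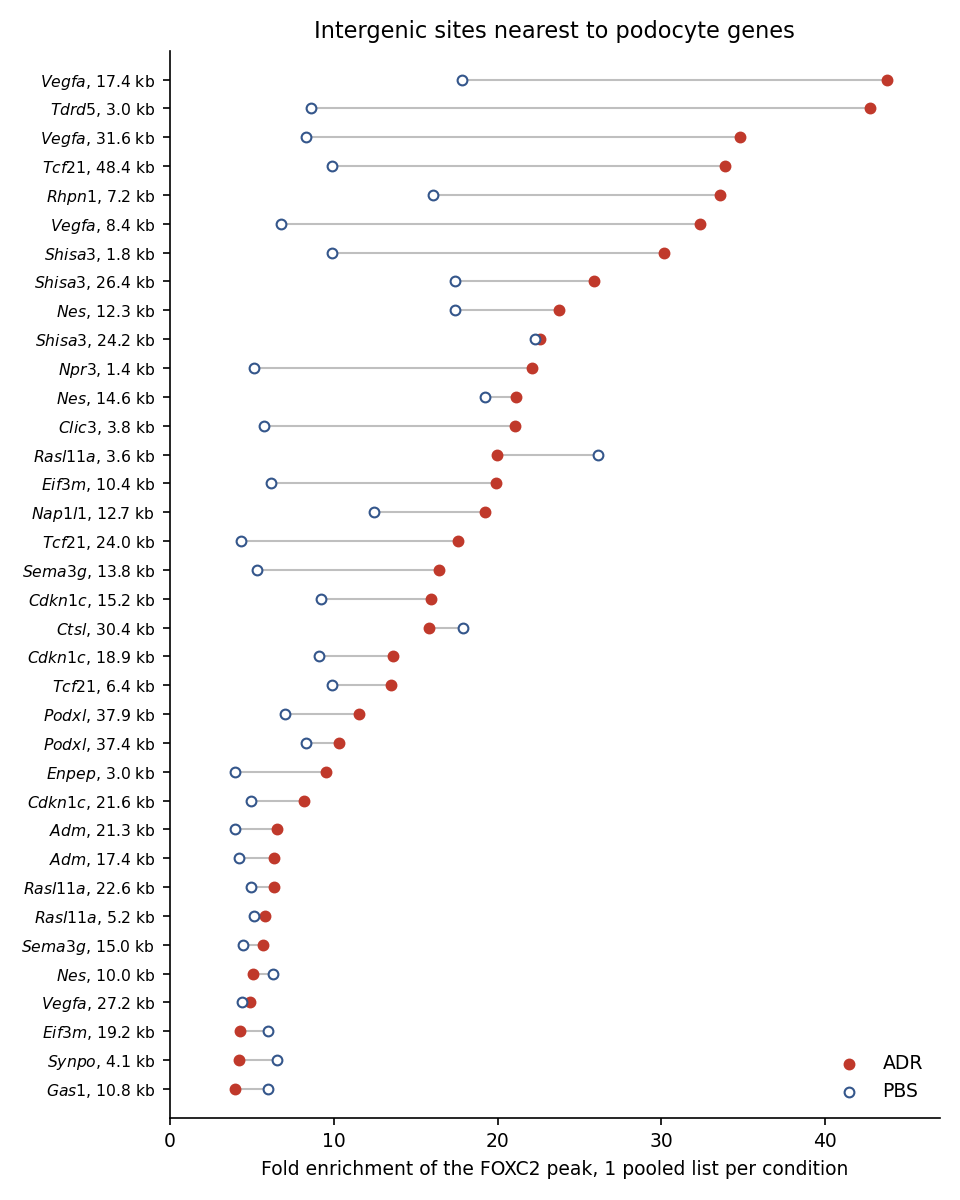
Fold enrichment in the ADR list (filled red) and the PBS list (open blue) of 36 of the 39 intergenic sites whose nearest protein-coding TSS, within 50 kb, is that of 1 of the 48 podocyte genes, labelled by gene and distance and ordered by ADR fold. The ADR fold is the higher at 30 of those plotted, with *Vegfa* at the top with 43.8 in ADR and 17.8 in PBS.

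The other gene lists are given by the sites within 50 kb of their TSS. The 2843 such sites of all protein-coding genes had a median log2 ratio of 0.04. Of them, 15.9% were at least 2 times higher in ADR and 10.4% at most 0.5 times. Of all protein-coding genes, 17.1% had such a site, and of the 48 podocyte genes 54.2%. The share was 58.1% of actin and focal adhesion, 50% of AP-1, 36% of p53 and 32.4% of TF genes. It was 31.3% of glomerular disease, 27.8% of YAP and TEAD and 25.9% of basement membrane genes. Podocyte and nephron TFs had sites at 12 of 37 genes, 29 sites with a median of 0.67, of which 10 were at least 2 times higher in ADR and 2 at most 0.5 times. *Foxd1* had 4 of these sites, 3 of them at least 2 times higher in ADR, while the strongest had 43.9 in ADR and 45.2 in PBS. *Hes1*, the Notch effector, had 11, of which 3 were at least 2 times higher in ADR and 1 at most 0.5 times. *Foxd2*, a forkhead TF gene, had 5.53 in ADR and 12.98 in PBS. Glomerular disease and slit diaphragm genes had 33 sites at 15 of 48 genes, with a median of 0.13 by fold and −1.78 percentile points by rank within the lists. The fold was higher in ADR at 18 of the 33, at least 2 times at 7 and at most 0.5 times at 2. Among them *Magi2*, a scaffold gene of the slit diaphragm, had a site with 40.7 in ADR and 6.53 in PBS, and *Ptpro*, a podocyte receptor phosphatase gene, one with 31.8 and 6.46. The site within 50 kb of *Nup93*, a nuclear pore gene, had 4.73 in ADR and 9.52 in PBS, and that of *Magi1* had 5.42 and 7.82.

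Actin cytoskeleton and focal adhesion genes had sites at 18 of 31 genes, 51 in all, with a median of −0.11, of which 3 were at least 2 times higher in ADR and 8 at most 0.5 times. *Cald1*, which encodes the actin regulator caldesmon, had 2 of the 8, and *Tpm1*, a tropomyosin gene, had 8.71 in ADR and 27.2 in PBS. AP-1 genes had 19 sites at 6 of 12 genes with a median of −0.11, none at least 2 times higher in ADR and 3 at most 0.5 times. The strongest at *Fos* had 28.2 in ADR and 41.6 in PBS. YAP and TEAD pathway genes had 7 sites at 5 of 18 genes, 1 of them higher in ADR, and *Ccn2*, a YAP target, had 4.05 in ADR and 11.9 in PBS. p53 and DNA damage response genes had 24 sites at 9 of 25 genes with a median of −0.21, of which 4 were at least 2 times higher in ADR and 2 at most 0.5 times. *Cdkn1a*, the p21 gene, had 6.39 in ADR and 19.4 in PBS, and *Xpc*, a DNA repair gene, had within 50 kb a site of each kind. Basement membrane and matrix genes had 12 sites at 7 of 27 genes with a median of 0.02 by fold and −5.35 percentile points.

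Genes that mark other cells of the kidney also had sites within 50 kb, beside 17.1% of all protein-coding genes. The share was 70.0% of parietal epithelial, 31.3% of distal tubule and collecting duct, 28.6% of proximal tubule, 20% of endothelial, 16.7% of mesangial and 13.3% of immune markers. There were 3 at 3 of 15 endothelial markers, none higher in ADR, 7 at 2 of 12 mesangial markers (3 higher in ADR), 5 at 4 of 14 proximal tubule markers (4 higher), 7 at 5 of 16 distal tubule and collecting duct markers (4 higher), 8 at 7 of 10 parietal epithelial markers (3 higher) and 5 at 2 of 15 immune markers (3 higher). Skeletal muscle and neuron genes had 4 sites at 4 of 17 genes, 2 higher in ADR. *Pax2* and *Pax8* are on both the parietal and the TF list, and binding near a gene does not measure its expression or which cell it came from.

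Many sites stood close together. When neighboring sites were joined into groups, with a largest gap of 12494 bp within a group and a smallest gap of 12504 bp between groups, 1988 of the 4770 fell into 766 groups of 2 or more and 49 groups had at least 5. The largest, of 14 sites over 46.6 kb at chr12:86790434-86837054, lies between *Lrrc74a* and *Irf2bpl*, with ADR folds of 4.02 to 41.5 and PBS folds of 3.97 to 38.8. The second, of 13 sites over 36.9 kb at chr15:77855347-77892230, lies between *Txn2* and *Myh9*, the nonmuscle myosin gene mutated in a hereditary kidney disease. Its strongest site had 41.7 in ADR and 45.0 in PBS, and its site at 14.5 kb had 5.14 and 19.4. The third, of 11 sites over 58.7 kb at chr12:69403957-69462668, lies between *Vcpkmt* and *Arf6*, a GTPase gene of membrane traffic, and holds a site with 9.64 in ADR and 49.4 in PBS and another with 16.9 and 4.55. The median log2 ratios of the 3 groups were −0.04, −0.35 and 0.03, and each group held sites with the higher fold in ADR and sites with the higher fold in PBS.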

How the data were processed

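FOXC2 ChIP-seq of sorted podocytes was processed by the authors with trimming, alignment to GRCm38, narrow peak calling with nf-core/chipseq and pooling of the 3 samples of each condition (50-bp single-end reads). Caller version, threshold and read depth are not given in the sources used here. Per the deposited lists, each peak has positions and a summit offset in bp, a fold enrichment over background (a ratio) and a −log10 q. Other columns were not used.

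Members, motifs and gene lists were chosen with earlier results of these data known. Peaks were joined by overlap of 1 bp and placed by GENCODE M21 transcripts. Promoters reached 1 kb upstream of a TSS and 100 bp into the transcript. Motifs were exact words within 100 bp of the summit, with flanks 1 kb away. Intervals are 95% Wilson intervals for shares, normal intervals for differences of shares and binomial order-statistic intervals for medians. No test was run, because each condition has 1 pooled list.

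Named sites were the 10 with the highest ADR fold, the 10 largest and 10 smallest ratios, the 10 farthest from a protein-coding TSS with an ADR fold of at least 20, sites within 50 kb of a podocyte gene that is nearest, and the 3 largest groups of sites joined. Sites named for other gene lists were chosen after their values were seen. Sites of some podocyte genes are counted but not reported here by name. Functions were tested on simulated data. Alternatives changed the overlap, the intergenic margin, thresholds, pairing, scale, motif window, and quintiles at equal fold or GC content. Python 3.11.15, NumPy 2.4.6, pandas 2.3.3, SciPy 1.17.1 and matplotlib 3.10.9 were used.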

Additional observations from a re-analysis of the deposited data

How the results depend on the processing

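The alternatives left the number of sites between 3347 and 6276, each within 1.5 times of 4770. The median log2 ratio of ADR fold to PBS fold was 0.0523 with overlap of at least 50% of both peaks and 0.0517 with folds centered on the median ratio of all ADR peaks that overlap a PBS peak (0.04). By percentiles within each list it was reversed, at −2.16 percentile points. The share of sites with an ADR fold at least 2 times the PBS fold was 13.1% with 50% overlap, and 16.4% with folds of at least 5 in both lists. The difference in forkhead share between the highest and lowest quintile of the ratio was 5.29 points within quintiles of GC content and was above 0 under all alternatives run. Motif shares were lower with a window of 50 bp, such as 14.8% for forkhead and 27.8% for WT1. A further 2 alternatives were added after seeing the data. Leaving out sites inside a RefSeq gene record gave 3918 sites, a median of 0.10 and 18.2% at least 2 times higher in ADR, and leaving out the sex chromosomes gave 4665 sites, 0.08 and 17.4%. Leaving out a replicate was not run and no paired analysis was possible because the lists are pooled by condition. Depth is unknown, and PBS folds reach higher than ADR folds.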

Other observations

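Some genes were the nearest coding gene of many intergenic sites. Over all 4770 sites, 17.6% had an ADR fold at least 2 times the PBS fold and 10.1% at most 0.5 times. *Ptpn1*, which encodes a protein tyrosine phosphatase, was nearest to 18, with a median log2 ratio of ADR fold to PBS fold of −0.0019, none at least 2 times higher in ADR and 3 at most 0.5 times. *Zfp36l1*, an mRNA decay factor gene, was nearest to 17, with a median of 0.56 and 6 sites at least 2 times higher in ADR. *Efnb1*, which encodes ephrin-B1, had 12 sites with a median of 0.89, and *Nrp1*, a VEGF and semaphorin receptor gene, 11 with 0.83. The highest medians among the genes with at least 10 sites that are named here were 1.57 at the 10 sites of *Ajap1* and 1.56 at the 13 sites of *Gm826*. *Irf2bp2*, a transcriptional repressor gene, had 13 sites with a median of −0.62, of which 4 had an ADR fold at most 0.5 times the PBS fold and none at least 2 times. Among the 4 is the site with the smallest ratio, whose summit lay 1138 bp from that of its PBS peak. Another ADR peak, with a fold of 23.8, had its summit 27 bp from that PBS summit, where the PBS fold was 26.6. These genes were chosen for their number of sites after the values were seen, the sites of 1 gene are not independent, and no difference between genes was tested.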
